A study of Mus musculus with 6 samples.

Results

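The Rab genes encode small GTPases of the Ras superfamily that direct traffic between the membranes of a cell. Members were taken as every gene whose symbol is Rab followed by a number and its suffix letter, with at least 10 counts in at least 3 of the 6 libraries. The tables listed 59 such symbols among 36706 genes, and 51 passed. No member reached 10 counts in libraries of 1 group only. The 8 symbols outside were Rab3b, Rab3c, Rab9b, Rab17, Rab25, Rab26, Rab39b and Rab40b. Rab30 lay just inside, with 5, 8 and 12 counts in the untreated libraries, in order of replicate number, and 14, 10 and 9 in the IFN-γ libraries. Rab40b lay just outside, with 12, 3 and 6 counts and then 3 in each IFN-γ library. Rab30 did not pass the filter for testing, so 50 members of 12968 genes were tested.

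RNA was sequenced from bone marrow-derived macrophages (BMDMs) of wild-type mice, grown from marrow cells in RPMI medium with 10% serum, antibiotics and 20 ng/mL of the growth factor M-CSF. The untreated group and the group given interferon-gamma (IFN-γ) for 3 h had 3 libraries each, with mouse age and sex and the dose of IFN-γ not stated in the labels. The study asked how IFN-γ, a cytokine that activates macrophages, induces ACOD1, the enzyme that makes itaconate. The labels do not say that replicates were separate mice or cultures, so p-values reflect only how far these libraries differ, and that difference may be technical.

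A Rab is switched on when a guanine nucleotide exchange factor (GEF) loads it with GTP, and off when a GTPase-activating protein (GAP) makes it hydrolyse that GTP. In the GTP form it sits on its own membrane through lipid tails and recruits effectors, the tethers, motors and enzymes that move or fuse the vesicle. In macrophages Rab5 marks the young phagosome and Rab7 the one that meets lysosomes, and Rab32 takes part in defence against bacteria inside the cell. Rab32 is also known for a link to this study's enzyme, since ACOD1 is brought to vacuoles of Salmonella together with it.

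Start regions are shown for the Rabs with the largest rises, Rab43 and Rab20, and for both members that rose and also held a motif searched, Rab15 and Rab19. GAS and ISRE are short motifs known from the promoters of interferon-induced genes. The search was for GAS as TTCNNNGAA, which reads the same on both strands, and for ISRE as GAAANNGAAA on either strand, in RefSeq windows of 300 bases around transcript starts (GRCm38.p6). These windows matched 41 of the 51 members by symbol, with 53 windows, and 10 members (Rab2a, Rab4a, Rab7b, Rab18, Rab27b, Rab30, Rab36, Rab37, Rab38 and Rab44) had none. Capitals mark motif matches. Each sequence is printed 5′ to 3′ in the direction of its gene.
Rab19, chr6:39381103-39381402, plus strand: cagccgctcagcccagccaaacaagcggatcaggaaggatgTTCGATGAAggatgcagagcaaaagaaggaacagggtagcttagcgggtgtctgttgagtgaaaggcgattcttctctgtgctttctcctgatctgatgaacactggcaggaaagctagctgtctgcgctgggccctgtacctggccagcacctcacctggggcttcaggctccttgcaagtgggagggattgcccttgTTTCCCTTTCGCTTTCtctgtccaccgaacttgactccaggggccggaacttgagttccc
Rab15, chr12:76813807-76814106, minus strand: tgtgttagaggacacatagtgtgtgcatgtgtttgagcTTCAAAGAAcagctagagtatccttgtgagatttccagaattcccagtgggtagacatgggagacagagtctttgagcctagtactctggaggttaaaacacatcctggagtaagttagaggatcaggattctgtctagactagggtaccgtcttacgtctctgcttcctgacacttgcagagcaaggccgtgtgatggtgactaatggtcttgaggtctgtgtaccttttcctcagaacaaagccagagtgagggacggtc
Rab20, chr8:11478591-11478890, minus strand: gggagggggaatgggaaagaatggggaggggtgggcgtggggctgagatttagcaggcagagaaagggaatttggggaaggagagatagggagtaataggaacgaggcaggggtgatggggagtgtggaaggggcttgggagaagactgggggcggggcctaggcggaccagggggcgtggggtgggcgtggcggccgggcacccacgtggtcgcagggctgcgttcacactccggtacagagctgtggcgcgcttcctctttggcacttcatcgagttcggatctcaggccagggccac
Rab43, chr6:87811730-87812029, minus strand: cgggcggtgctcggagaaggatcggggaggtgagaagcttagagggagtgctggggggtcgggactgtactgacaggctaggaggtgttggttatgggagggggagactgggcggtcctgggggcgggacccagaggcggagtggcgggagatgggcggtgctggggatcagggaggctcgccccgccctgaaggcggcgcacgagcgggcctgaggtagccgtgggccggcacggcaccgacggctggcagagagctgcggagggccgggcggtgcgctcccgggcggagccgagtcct

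In the Rab19 window a GAS match began 209 bases before the start, and 2 ISRE matches that overlap each other began 10 and 4 bases before it. The Rab15 window is 1 of 4 for that gene, and its GAS match began 212 bases before the start. It is shown for that match and has 4 CpG sites. The other windows of Rab15 held neither motif, among them the one with the most CpG sites, 38. The Rab20 window held neither motif, and none of the 4 Rab43 windows did. The Rab43 window shown is the one with the most CpG sites, 28, and was chosen after the windows were seen. Over all 53 Rab windows, GAS occurred in 4 (7.55%, in Rab11a, Rab15, Rab19 and Rab34), against 8.3% of all 32851 windows in the table. ISRE occurred in 1 (1.89%), against 3.44% of all windows. Among the windows of tested genes, 6.98% held GAS and 3.37% held ISRE. The windows of Rab genes had a median GC content of 62.67% and 23 CpG sites, against 60% and 20 sites for the windows of all tested genes. A match is a description of letters, and no binding was measured here.

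Total counts were 28133342 to 31173432 in the untreated libraries and 32628170 to 34233607 in the IFN-γ libraries, and TMM factors were 1.03 to 1.08 and 0.938 to 0.949. All 10 macrophage markers were expressed, with summed levels of 19904 to 21530 CPM untreated and 21225 to 22569 CPM after IFN-γ (CPM are counts relative to the library total after TMM adjustment). Lyz2, the marker with the most counts in every library, did not pass (log2 -0.02). Of the 10, 4 were higher (Fcgr1 by 1.25, Spi1 by 0.46, Adgre1 by 0.38 and Csf1r by 0.36). Cd163 was lower (log2 -1.30), with 34 to 57 counts untreated and 18 to 22 after IFN-γ. Summed neutrophil markers were 69.7 to 92.5 and 118 to 131 CPM, with 2 of 6 markers higher, and summed dendritic cell markers 1.59 to 1.86 and 4.46 to 5.22 CPM, with 1 of 5 higher. Their part in the Rab results was not tested. T cell, B cell and NK cell markers stayed under 5 CPM in sum, with Cd3e and Klra8 at 0 in all libraries. Untreated replicate 2 had the largest slope of counts against transcript length, -0.14 on the log2 scale per doubling. Untreated replicate 1 had 0.10, and the other libraries -0.04 to 0.06. Each library was set against the other 2 of its group, so these slopes depend on each other. By chi-square over degrees of freedom, untreated replicates 2 and 3 differed by 27.5, and replicate 1 differed from them by 81.1 and 52.7.

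Of the 50 tested Rabs, 18 (36%) rose and 5 (10%) fell after 3 h of IFN-γ, while 27 passed neither way. Among all 12968 genes tested, 19.6% rose and 16.8% fell, 36.4% in either direction (edgeR's quasi-likelihood F-test at an adjusted p under 0.05). In bulk RNA, fewer cells of a type and less RNA per cell cannot be told apart. The libraries of both groups did not overlap in 25 Rabs that were higher and 6 that were lower. Among all genes tested these shares were 25.9% and 24.2%, 50.1% together. Rises of at least 2-fold passed in 4 Rabs (Rab43, Rab20, Rab38 and Rab15), against 6.17% of all genes. Falls of at least 2-fold passed in 3 (Rab4a, Rab3a and Rab42), against 1.94% of all genes.

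Most of the rises were small. Of the 18, 11 lay between 0.19 and 0.41 on the log2 scale. Of the 50, 37 had a positive estimate and 13 a negative one. The median change was 0.13, against -0.01 over all genes, and it was -0.02 with upper quartile scaling and -0.04 with total counts. Those scalings moved the median of all genes to -0.16 and -0.18. A scaling factor shifts all genes nearly alike, so the gap between the 2 medians could hardly move, and it was 0.14 under each. With 1 library left out, which can move it, the gap ran from 0.114 (without IFN-γ replicate 3) to 0.167 (without IFN-γ replicate 1). The calls moved with the scaling: upper quartile scaling gave 10 higher and 9 lower, against 13.9% and 31.6% of all genes. Total counts gave 9 higher and 11 lower, against 12.8% and 34.9% of all genes. The falls added under both were Rab6b, Rab7b, Rab31 and Rab34, and total counts also added Rab1b and Rab24. Without untreated replicate 2, 25 Rabs rose and 8 fell, against 24% and 21.1% of all genes. Without IFN-γ replicate 2, 11 rose and 4 fell, against 15.2% and 11% of all genes. Called only without untreated replicate 2 or with the length trend removed, or both, were rises of Rab5b, Rab7, Rab8a, Rab11a, Rab11b, Rab13, Rab28 and Rab35. Leaving out that library also added falls of Rab6b, Rab7b and Rab31, and Rab29 rose in both settings and with the replicate block. Under all 15 alternatives tried (14 for a gene removed by a stricter filter), the calls of 8 risers (Rab1a, Rab12, Rab15, Rab20, Rab22a, Rab38, Rab39 and Rab43) and 4 fallers (Rab3a, Rab4a, Rab40c and Rab42) held.

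**Figure D1:**
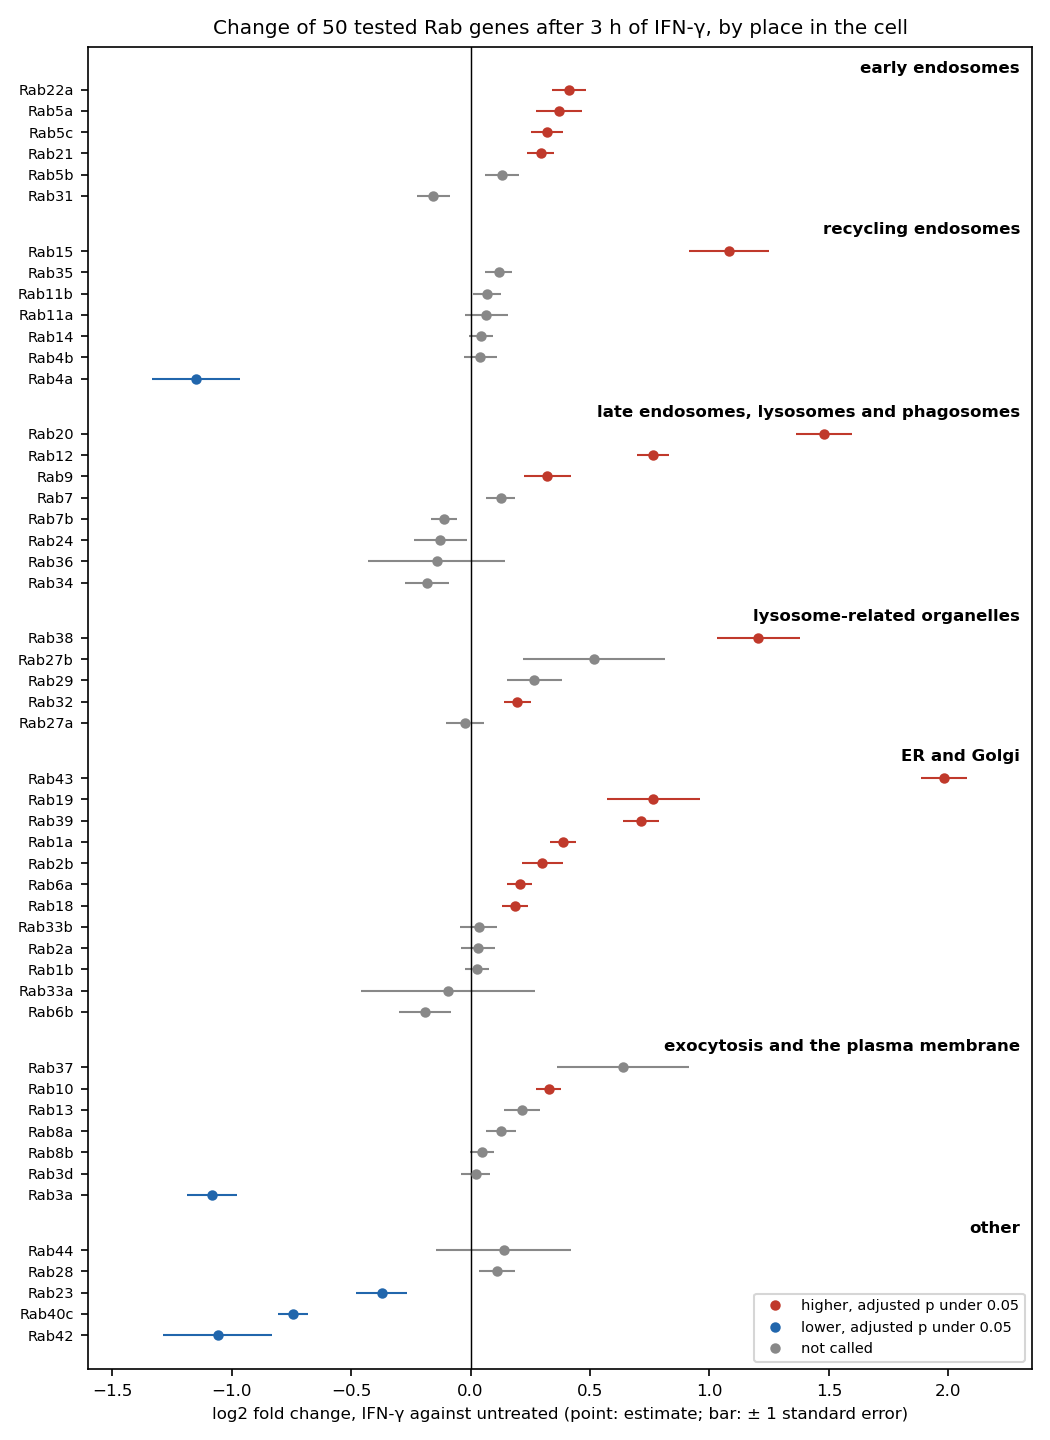
Log2 fold change of each tested Rab after IFN-γ against untreated, estimated by edgeR with TMM scaling, with bars of 1 standard error, grouped by the place in the cell where each protein is known to act. Rab43 stands farthest to the right at 1.98 and Rab4a farthest to the left at -1.15, and many of the others lie within 0.5 of zero, where upper quartile and total count scaling shift every point to the left.

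**Figure D2:**
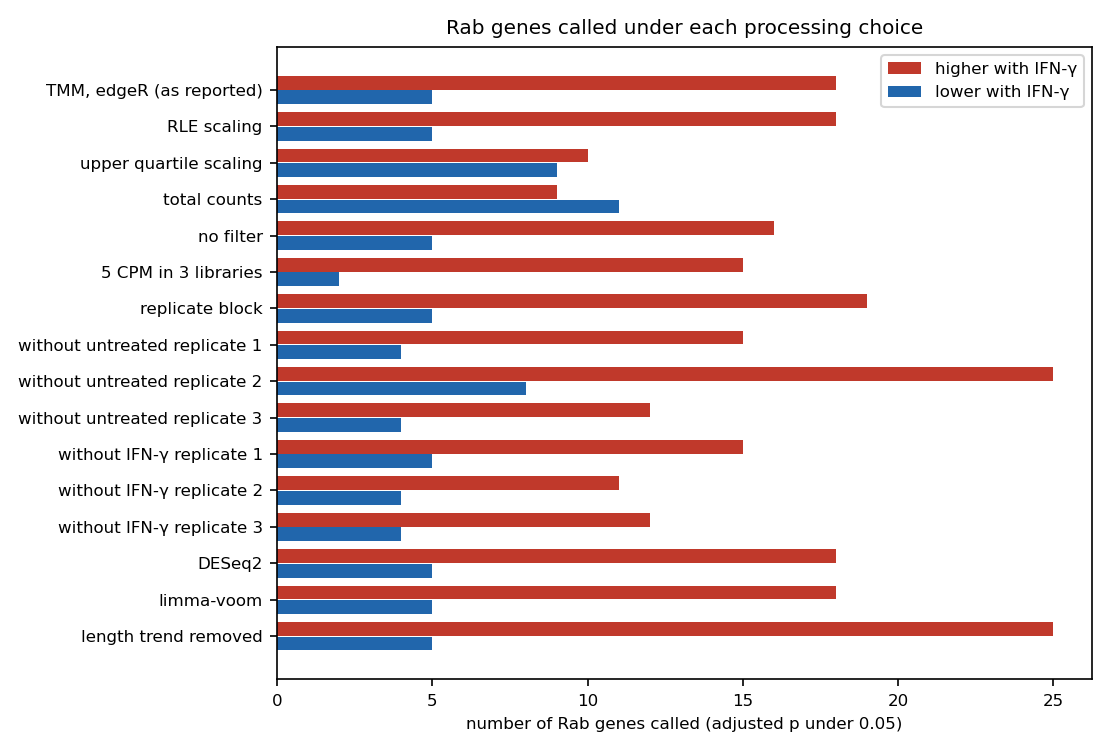
Number of Rab genes called higher or lower after IFN-γ, at adjusted p under 0.05, under each processing choice. Rises run from 9 with total counts to 25 without untreated replicate 2 or with the length trend removed, and falls from 2 with a filter of 5 CPM to 11 with total counts. Among all genes, 12.8% rose with total counts, 24% without untreated replicate 2 and 25.8% with the length trend removed. Falls were 20.1% of all genes with the 5 CPM filter and 34.9% with total counts.

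Levels between genes were compared as TPM, a relative abundance that divides by transcript length. The most abundant Rabs were those of the main stations of the endocytic and early secretory routes. Rab5c led with 578 ± 16.9 TPM untreated and 665 ± 7.43 TPM after IFN-γ (SD, n = 3), followed by Rab7 with 466 ± 16.9 and 469 ± 10.9 TPM. Next came Rab1a (292 ± 14.3 and 352 ± 13.5 TPM), Rab1b (224 ± 12.2 and 210 ± 9.44 TPM) and Rab14 (200 ± 18.9 and 189 ± 4.49 TPM). In every library each of the first 3 lay above the next in that order. Rab1b lay above Rab14 in every library too, but their untreated ranges touched. Rab14 and the next in order, Rab11a, overlapped in both groups. The 5 most abundant held 46.5 to 47.4% of summed Rab TPM in every library. At the other end, 8 members lay under 1 TPM on average: Rab15, Rab27b, Rab30, Rab33a, Rab36, Rab37, Rab42 and Rab44.

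**Figure D3:**
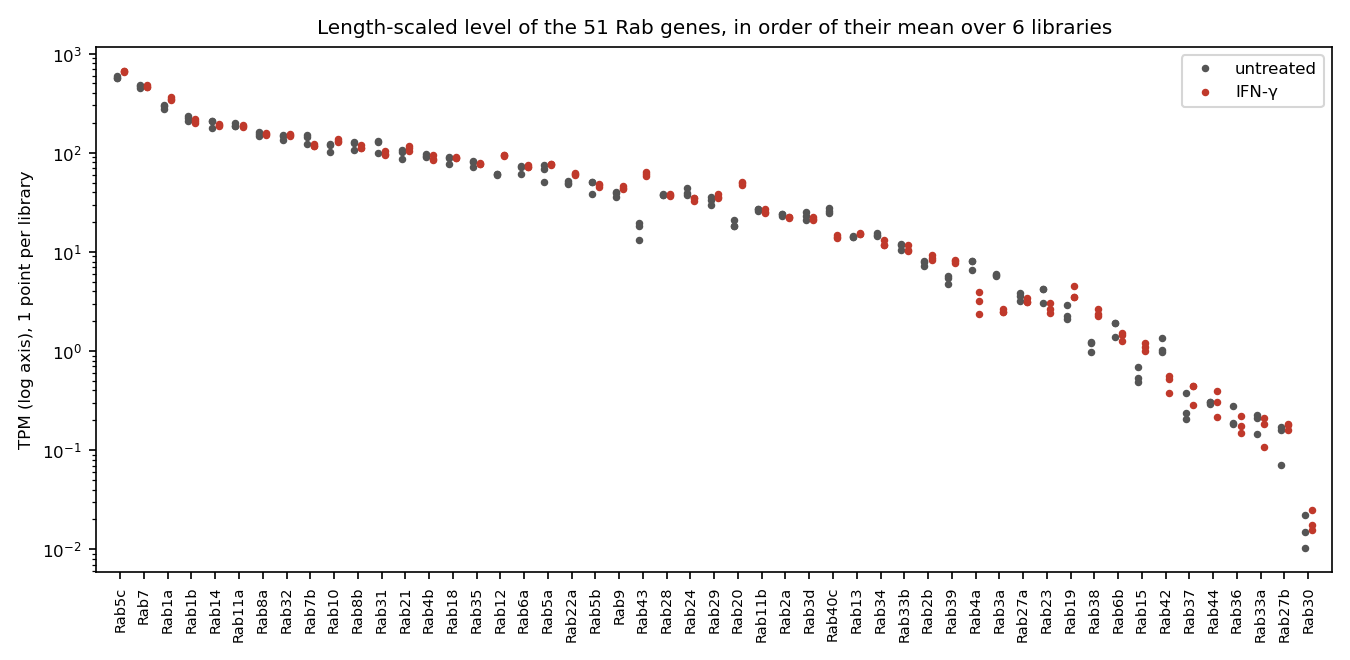
TPM of the 51 Rab genes in each library on a log axis, in order of their mean, with untreated and IFN-γ libraries in separate colours. Levels fall from 622 TPM for Rab5c to 0.0175 TPM for Rab30, and the libraries of the abundant Rabs lie close together compared with the distance between genes.

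Of the 20 members with a mean of at least 50 TPM, 10 rose and 0 fell in edgeR's test, with estimates from -0.16 to 0.77. Of the 30 tested members below 50 TPM, 8 rose and 5 fell, with estimates from -1.15 to 1.98. These are 50% and 0% of the first set, and 26.7% and 16.7% of the second. Among all genes tested 19.6% rose and 16.8% fell, and with the filter of 5 CPM in 3 libraries 20.1% each way. Shares of all genes split at 50 TPM were not computed. Summed over the family, the untreated libraries held 3819, 3543 and 3913 TPM and the IFN-γ libraries 4043, 3965 and 3946 TPM. The groups did not overlap, and the sum moved far less than Rab43 or Rab20 did. Wherever 0 falls or rises are given for a group of Rabs here, 0 members passed in that direction at an unadjusted p under 0.05. With DESeq2 or limma-voom 0 did too. Other settings did call members of these groups. Rab6b, Rab7b, Rab31 and Rab34 fell with upper quartile and total count scaling, and Rab1b and Rab24 with total counts. Of these, Rab1b, Rab7b and Rab31 have at least 50 TPM. Rab6b, Rab7b and Rab31 also fell without untreated replicate 2. Rab28 rose without untreated replicate 2 and with the length trend removed.

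Early endosome Rabs: 4 of 6 tested rose and 0 fell, with a median log2 change of 0.31. Beside the counts of this and the following groups, 19.6% of all genes tested rose and 16.8% fell. Rab5 paralogs drive the fusion of incoming vesicles and young phagosomes with early endosomes. Rab5c had 542.8, 606.2 and 561.7 CPM untreated and 675.8, 727.9 and 733.5 CPM after IFN-γ, again in order of replicate. All IFN-γ libraries lay above all untreated ones, a log2 change of 0.32 ± 0.07 (SE, edgeR adjusted p = 0.006844). Rab5a had 78.5, 59.5 and 71.1 CPM untreated and 87.5, 90.3 and 92.2 CPM after IFN-γ, a change of 0.37 ± 0.10 (edgeR adjusted p = 0.01786). Untreated replicate 2 was the low one of Rab5a, and the call was lost without untreated replicate 3 or any single IFN-γ library. Rab22a, which acts between early and recycling endosomes, rose by 0.41 ± 0.07, and Rab21, which carries integrins, by 0.29 ± 0.06. Rab5b (0.13, adjusted p = 0.1984) and Rab31 (-0.16, adjusted p = 0.1151) did not pass in edgeR's test. The calls of Rab5a, Rab5c and Rab21 were lost with upper quartile scaling and with total counts, where their estimates stayed positive.

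Of 7 recycling Rabs tested, Rab15 rose, Rab4a fell and 5 did not pass. That is 14.3% each way, against 19.6% and 16.8% of all genes. Rab4 paralogs return receptors quickly from early endosomes to the surface. Rab4a (chromosome 8, 124532583 to 124562030, plus strand, 8 exon blocks, in the coordinates of the deposited tables, whose build is unnamed here) had 5.58, 6.36 and 4.54 CPM untreated and 2.96, 1.89 and 2.54 CPM after IFN-γ. The groups were well apart, a fall of 2.22-fold (log2 -1.15 ± 0.19, edgeR adjusted p = 0.001757), on 153 to 188 counts untreated and 58 to 96 after IFN-γ. Rab15, a Rab first known from neurons that acts at early and recycling endosomes, had 34, 27 and 30 counts untreated and 64, 59 and 72 after IFN-γ. That is 0.978 ± 0.133 CPM against 2.07 ± 0.217 CPM (SD, n = 3), a log2 change of 1.08 ± 0.17 (edgeR adjusted p = 0.001425), at a low level where 3 counts correspond to 0.089 to 0.102 CPM. The abundant recycling Rabs did not pass the test. Rab11a, which runs the slow route through the recycling compartment, had 192.4, 234.9 and 192.3 CPM untreated and 202.5, 219.5 and 226.0 CPM after IFN-γ. Its groups overlapped (log2 0.07 ± 0.09, edgeR adjusted p = 0.6203). Untreated replicate 2 was its highest library, and without it the change was 0.17 and passed (edgeR adjusted p = 0.03546). Rab14, of the route between Golgi and endosomes, had 297.5, 286.0 and 296.8 CPM untreated and 298.0, 306.9 and 302.8 CPM after IFN-γ (log2 0.04 ± 0.05, edgeR adjusted p = 0.5446). Rab4b, Rab11b and Rab35 lay between 0.04 and 0.12 on the log2 scale.

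Late endosome, lysosome and phagosome Rabs: 3 of 8 tested rose and 0 fell, and the median log2 change was 0.01. Rab20, linked to the maturation of phagosomes in macrophages, lies on chromosome 8 from 11503390 to 11528640 on the minus strand, with 3 exon blocks. It had 13.5, 17.8 and 13.4 CPM untreated and 38.5, 43.1 and 42.8 CPM after IFN-γ. Every IFN-γ library lay far above the highest untreated one, a rise of 2.79-fold (log2 1.48 ± 0.12, edgeR adjusted p = 2.75e-05). A gene on the other strand, E230013L22Rik, overlaps 18.7% of the exon bases of Rab20 and had 28, 23 and 27 counts untreated and 92, 82 and 100 after IFN-γ. Rab20 itself had 405 to 525 counts untreated and 1249 to 1328 after IFN-γ. Whether the counting used strand is not given in the sources used here, and the part of the overlap in the Rab20 counts was not tested.

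Rab12, which sends transferrin receptor to lysosomes and is a substrate of the kinase LRRK2, had 56.4, 62.5 and 56.5 CPM untreated. After IFN-γ it had 93.6, 101.0 and 103.5 CPM, a log2 change of 0.77 ± 0.07 (edgeR adjusted p = 5.269e-05). It was the largest change among the 20 Rabs with at least 50 TPM. Rab7, which brings late endosomes and phagosomes to lysosomes, had 541.0, 590.5 and 555.7 CPM untreated and 605.6, 612.3 and 622.5 CPM after IFN-γ. The groups did not overlap, but the change of 0.13 ± 0.06 did not pass (edgeR adjusted p = 0.1378), and it was -0.02 with upper quartile scaling and -0.04 with total counts. It passed as a rise of 0.16 without untreated replicate 2 (edgeR adjusted p = 0.0174) and of 0.15 with the length trend removed (edgeR adjusted p = 0.009519). Rab9, of the way back from late endosomes to the Golgi, had 25.2, 32.3 and 27.6 CPM untreated and 33.6, 35.1 and 37.8 CPM after IFN-γ. Its rise of 0.32 ± 0.10 (edgeR adjusted p = 0.03377) was lost with upper quartile or total count scaling and without any 1 library other than untreated replicate 2. Rab7b, Rab24, Rab34 and Rab36 had estimates between -0.18 and -0.11, and none passed.

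Rabs of lysosome-related organelles: 2 of 5 tested rose and 0 fell. Rab38 and Rab32 are close relatives that build melanosomes and other lysosome-like stores. Rab38 (chromosome 7, 88079481 to 88140780, plus strand, 3 exon blocks) had 0.864, 0.947 and 0.682 CPM untreated and 2.03, 1.79 and 1.90 CPM after IFN-γ. All IFN-γ libraries were above all untreated ones, a rise of 2.303-fold (log2 1.20 ± 0.17, edgeR adjusted p = 0.000977), on 23 to 28 and 55 to 66 counts. Rab32 started far higher, with 134.2, 139.8 and 134.9 CPM untreated and 147.1, 160.7 and 160.6 CPM after IFN-γ. Its change of 0.20 ± 0.06 passed narrowly (edgeR adjusted p = 0.02934). Upper quartile or total count scaling, no filter, or leaving out either of untreated replicates 1 and 3 or of IFN-γ replicates 2 and 3 ended that call. Rab27a, which docks secretory lysosomes and multivesicular bodies at the surface, had 6.25, 6.43 and 6.73 CPM untreated and 6.53, 6.25 and 6.31 CPM after IFN-γ. These overlapped (log2 -0.02 ± 0.08, edgeR adjusted p = 0.8475). Rab29, a partner of LRRK2, had 21.8 ± 3.49 CPM untreated and 26.2 ± 1.82 CPM after IFN-γ and did not pass (edgeR adjusted p = 0.1103).

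Rabs of the endoplasmic reticulum (ER) and Golgi held the largest rise of all: 7 of 12 tested rose and 0 fell, with a median log2 change of 0.20. Rab43, a Golgi Rab linked to phagosome maturation and to antigen cross-presentation in dendritic cells, lies on chromosome 6 from 87765835 to 87789146 on the minus strand, with 6 exon blocks. It had 39.5, 32.0 and 41.6 CPM untreated and 151.0, 149.4 and 146.5 CPM after IFN-γ. The IFN-γ libraries lay within a few CPM of each other and far above the untreated ones. The means were 37.7 ± 5.02 and 149 ± 2.28 CPM (SD, n = 3), a rise of 3.95-fold (log2 1.98 ± 0.10, edgeR adjusted p = 1.435e-06). In GENCODE M21, 74.5% of the 50-base stretches of Rab43 are shared with Gm45140, a locus that was not analysed here. With genes of the deposited tables, 0.0% are shared. Isy1, a gene next to Rab43, had 1163, 1364 and 1326 counts untreated and 1331, 1250 and 1273 after IFN-γ.

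Rab1a, which acts between ER and Golgi, had 374.1, 393.6 and 377.9 CPM untreated and 501.0, 490.9 and 507.1 CPM after IFN-γ. It was a rise of 1.31-fold (log2 0.39 ± 0.05, edgeR adjusted p = 0.0007909), with the lowest IFN-γ library well above the highest untreated one. Its paralog Rab1b had 183.7, 193.8 and 188.9 CPM untreated and 193.7, 195.0 and 188.6 CPM after IFN-γ, which overlapped (log2 0.03 ± 0.05, edgeR adjusted p = 0.7213). Rab39, which acts on Golgi, endosomes and phagosomes, rose from 7.22 ± 0.207 to 11.8 ± 0.577 CPM (log2 0.71 ± 0.08, edgeR adjusted p = 0.0001688). Rab19, whose start region is shown above for its ISRE matches, had 74, 108 and 78 counts untreated and 136, 173 and 138 after IFN-γ. Its rise of 0.76 ± 0.19 (edgeR adjusted p = 0.01609) was lost without untreated replicate 3 and without IFN-γ replicate 2. The other ER and Golgi Rabs that rose did so by less: Rab2b by 0.30, Rab6a by 0.21 and Rab18, known at ER and lipid droplets, by 0.19. Their calls were lost with upper quartile or total count scaling and without 3 or more of the single libraries. Mrpl48 overlaps 13.9% of the exon bases of Rab6a on the other strand, with 1003 to 1306 counts over the libraries.

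Exocytosis and plasma membrane Rabs: of 7 tested, Rab10 rose, Rab3a fell and 5 did not pass. Rab3a, of regulated secretion in neurons and endocrine cells, lies on chromosome 8 from 71207258 to 71211276 on the plus strand, with 6 exon blocks. It had 4.39, 4.80 and 4.30 CPM untreated and 2.16, 2.08 and 2.13 CPM after IFN-γ. The IFN-γ libraries were nearly equal and lay well below every untreated one, a fall of 2.11-fold (log2 -1.08 ± 0.10, edgeR adjusted p = 9.365e-05). Rab3d, its more abundant relative here, had 44.9 ± 2.52 and 45.6 ± 0.560 CPM (log2 0.02 ± 0.06, edgeR adjusted p = 0.8124). Rab10, which carries receptors such as TLR4 to the surface, rose from 184 ± 6.34 to 231 ± 2.79 CPM (log2 0.33 ± 0.05, edgeR adjusted p = 0.001761), a call that was lost with total counts alone. Rab8a, Rab8b, Rab13 and Rab37 had estimates between 0.05 and 0.64, and none passed.

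The 5 remaining members are assigned to no single station, and 3 of them fell while 0 rose. Rab40c, a Rab with a SOCS box that joins a ubiquitin ligase, had 27.98, 30.3 and 29.9 CPM untreated and 17.5, 17.7 and 17.4 CPM after IFN-γ. The groups were far apart, a log2 change of -0.74 ± 0.06 (edgeR adjusted p = 4.68e-05). Rab42, on 15 to 45 counts a library, changed by -1.06 ± 0.23 (edgeR adjusted p = 0.007746). Rab23, known as a brake on Hedgehog signalling, fell by 0.37 ± 0.11 on the log2 scale (edgeR adjusted p = 0.02606). That call was lost without untreated replicate 1 or 3 and without IFN-γ replicate 2 or 3. Rab28, of cilia, and Rab44, of granules, did not pass.

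**Figure D4:**
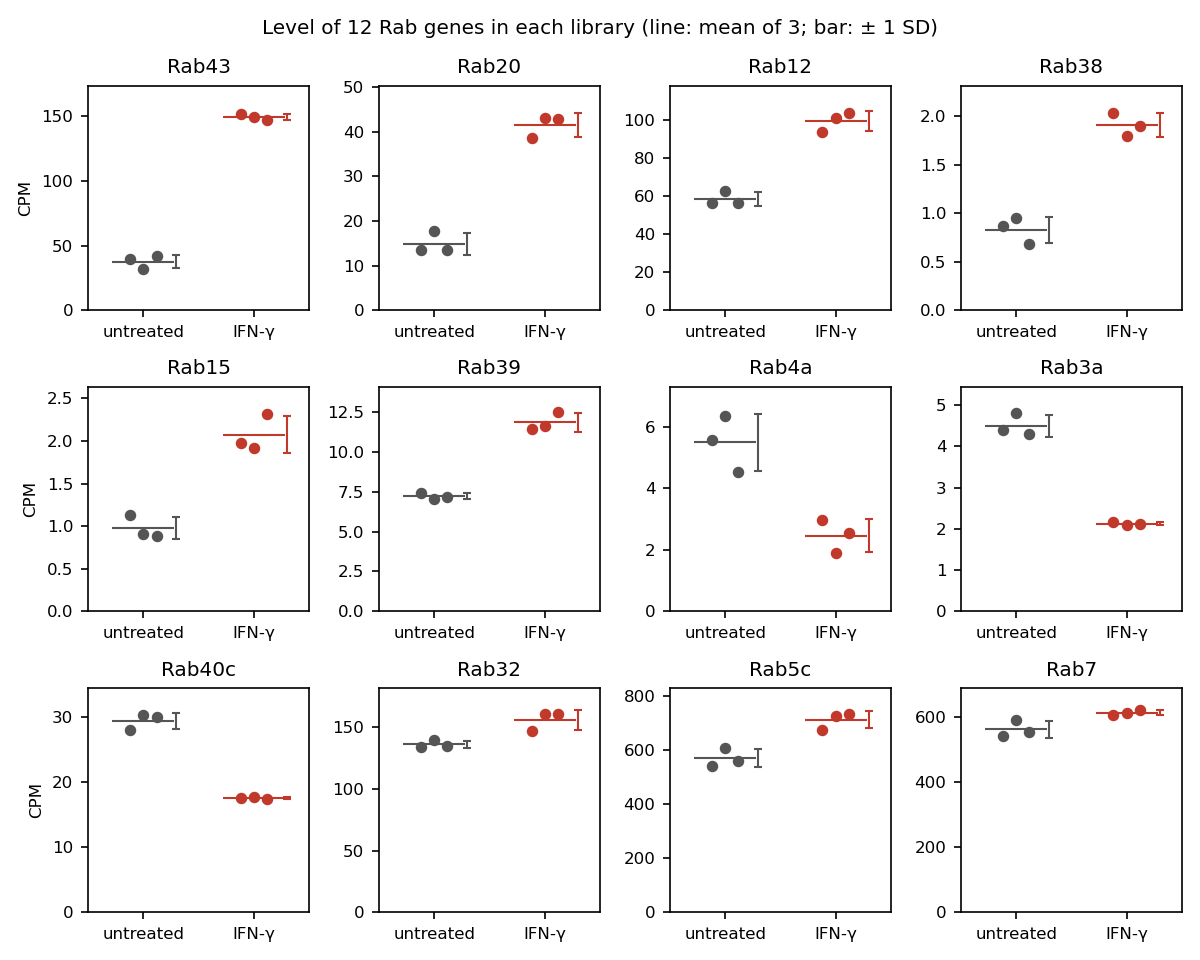
Level of 12 Rabs in each library in CPM scaled by TMM, with the mean of 3 libraries as a line and 1 SD as a bar, on axes that start at 0. Rab43, Rab20, Rab12, Rab38, Rab15 and Rab39 are higher and Rab4a, Rab3a and Rab40c lower in all IFN-γ libraries, while the steps of Rab32, Rab5c and Rab7 are small beside their level.

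Closely related Rabs often share partners, so the balance within a pair was followed as the ratio of their length-scaled levels in the same library (counts plus 0.5, over length), which no scaling factor between libraries can move. Of 16 pairs with both genes among the members, the ratio did not overlap between groups in 10, 5 higher and 5 lower. Each of these had an exact two-sided permutation p = 0.1, the smallest that 3 against 3 libraries allow, and an adjusted p of 0.16 over the 16 pairs, so none could pass. The ratio of Rab4a to Rab4b was 0.0891, 0.0873 and 0.0689 untreated and 0.0417, 0.0283 and 0.0370 after IFN-γ. Rab3a to Rab3d went from 0.233, 0.275 and 0.255 to 0.121, 0.115 and 0.120. In both pairs the scarce member became scarcer beside its relative. Rab32 exceeded Rab38 by 117, 111 and 149 times untreated and by 55.1, 68.3 and 64.3 times after IFN-γ. Rab22a to Rab31 went from 0.374, 0.4998 and 0.400 to 0.589, 0.650 and 0.634, and Rab1a to Rab1b from 1.31, 1.31 and 1.29 to 1.67, 1.62 and 1.73. The ratio of Rab11a to Rab11b overlapped, at 6.97, 7.74 and 6.98 untreated and 6.74, 7.45 and 7.48 after IFN-γ.

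**Figure D5:**
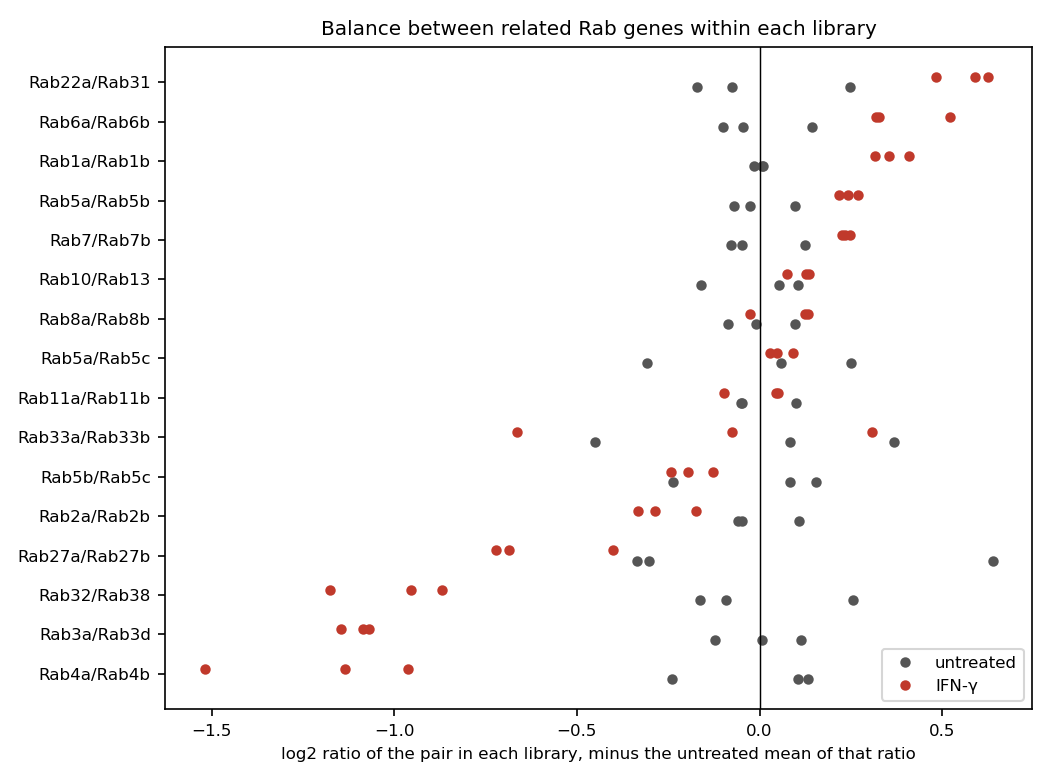
Log2 ratio of 2 related Rabs in each library, minus the untreated mean of that ratio, so that untreated libraries scatter around 0 and IFN-γ libraries show the shift. The ratios of Rab4a to Rab4b, Rab3a to Rab3d and Rab32 to Rab38 shift to the left, by -1.21, -1.10 and -0.9995 on average, and those of Rab22a to Rab31 and Rab1a to Rab1b move to the right.

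Proteins that run the Rab cycle were followed through 4 lists of GEFs, GAPs, effectors, and enzymes of lipid attachment, extraction and phosphorylation. Of 121 tested genes on them, 26 rose and 16 fell, 21.5% and 13.2%, against 19.6% and 16.8% of all genes. The median log2 change was 0.07. These shares are near those of all genes. Without untreated replicate 2, 9 GEFs and 10 GAPs fell, against 21.1% of all genes. Without IFN-γ replicate 1, 5 effectors rose, against 15.5% of all genes.

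Of 39 GEFs tested, 7 rose and 5 fell. Dennd1a, a GEF for Rab35, had 39.4, 32.6 and 39.4 CPM untreated and 129.1, 115.7 and 115.3 CPM after IFN-γ (log2 1.69 ± 0.09, edgeR adjusted p = 2.507e-06). Rab35 itself did not pass (0.12 ± 0.05, edgeR adjusted p = 0.1347). Dennd1b (0.91, edgeR adjusted p = 0.08348) and Dennd1c (0.08, edgeR adjusted p = 0.4377), also on the list, did not pass. Rab3il1, an exchange factor described for Rab3a and Rab8, had 120.4, 120.0 and 118.9 CPM untreated and 47.3, 46.6 and 46.2 CPM after IFN-γ (log2 -1.36 ± 0.05, edgeR adjusted p = 2.86e-07). Both Rab3a and this partner were thus lower. Other GEFs on the list did not follow: Rab3ip rose by 0.60 ± 0.10 (edgeR adjusted p = 0.00239). Madd did not pass (0.14 ± 0.09, edgeR adjusted p = 0.2679). Ric1, part of the GEF for Rab6, rose by 0.84, and Dennd2c, a GEF for Rab9, fell by 0.88 on the log2 scale. Rgp1, on the same list as Ric1, did not pass (-0.02 ± 0.07, edgeR adjusted p = 0.8848). Mon1b and Ccz1, subunits of the Rab7 GEF picked after their values were seen, rose by 0.54 and 0.51. The alternative subunit Mon1a did not pass (0.13 ± 0.09, edgeR adjusted p = 0.3128).

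Of 33 GAPs tested, 8 rose and 5 fell. The rises lay between 0.16 and 0.36, and the largest changes were falls. Tbc1d16, reported as a GAP for Rab4a, had 11.5, 7.27 and 10.1 CPM untreated and 5.08, 4.92 and 4.09 CPM after IFN-γ (log2 -1.04 ± 0.17, edgeR adjusted p = 0.002153). Both that GAP and Rab4a were thus lower. Tbc1d4, which holds back glucose transporter vesicles through Rab10, fell by 0.65, Tbc1d17 by 0.49 and Tbc1d15, a GAP for Rab7, by 0.42. The count of risers was 0 with total counts, 1 with upper quartile scaling, and 3 to 5 with any library other than untreated replicate 2 left out. Of all genes, 12.8% rose with total counts and 13.9% with upper quartile scaling.

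Of 39 effectors tested, 8 rose and 6 fell. Inpp5b, a phosphatase of inositol lipids that binds several Rabs, had 29.0, 24.4 and 31.5 CPM untreated and 143.5, 129.8 and 126.5 CPM after IFN-γ (log2 2.24 ± 0.10, edgeR adjusted p = 9.585e-07). Its fold change of 4.71 was larger than that of any Rab. The effectors Rab11fip4, Rilpl1 and Mical1 fell by 0.96, 0.94 and 0.89. Of 10 genes for lipid attachment, extraction and phosphorylation, 3 rose and 0 fell in edgeR's test (1, Rabggtb, at an unadjusted p under 0.05, and 0 with DESeq2 or limma-voom). The count of falls was 2 with upper quartile scaling, 3 with total counts, and 1 with the 5 CPM filter, without untreated replicate 2 or with the length trend removed. Lrrk2, the kinase that phosphorylates Rab8a, Rab10, Rab12 and other Rabs, had 7.41, 5.18 and 7.68 CPM untreated and 13.6, 11.6 and 11.0 CPM after IFN-γ (log2 0.83 ± 0.15, edgeR adjusted p = 0.003526). Its relative Lrrk1, which phosphorylates Rab7, rose by 0.48.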

How the data were processed

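Messenger RNA libraries were made with a KAPA stranded kit from Trizol-extracted RNA, per the labels' protocols. Reads were aligned with HISAT2 to mm10, per the submitters' processing notes. How reads were counted, whether by strand and with what done to multiple matches, is not given in the sources used here. Coordinates come from the deposited tables, whose build is unnamed here, since 1 of 59 Rab symbols had the start and end of RefSeq GRCm38.p6. Each table gives a deposited whole-number count and a deposited TPM per gene, per the file headers. TPM was used for levels between genes, and pair ratios used counts plus 0.5 over length.

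Groups came from the treatment label. Counts were tested with edgeR 4.0.16 in R 4.3.3: filterByExpr (minimum count 10, minimum total 15), TMM scaling, then glmQLFit and a two-sided glmQLFTest, with p-values adjusted by Benjamini-Hochberg over 12968 genes and called at 0.05. CPM use TMM factors. The script was tested on simulated data. The alternatives tried were 3 other scalings (RLE, upper quartile, total counts), testing unfiltered genes, requiring 5 CPM in 3 libraries, DESeq2 1.42.0, limma-voom (limma 3.58.1), the replicate number as a block, and each library left out. Removal of each library's trend on transcript length (lowess, span 0.5) was added after seeing the data. Standard errors come from edgeR's fit and SDs from the 3 libraries of a group, so both include differences between libraries. Floors of 3 counts cover counting error only. No libraries were merged, since every pair of replicates differed beyond sampling noise (chi-square over its degrees of freedom 2.05 to 81.1).

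The members, roles, lists and pairs were chosen with earlier results of these data known. Values by library are given for called members with a log2 change of at least 0.8 in size and at least 1 CPM, for the 5 most abundant members, for Rab5a, Rab5c, Rab7, Rab9, Rab11a, Rab14, Rab20, Rab27a, Rab32 and Rab38, and for up to 4 called genes per list with the largest change. The result of a gene that this rule names is not reported here. Library values of Rab12, Rab19 and Rab40c were added after they were seen. Sequence sharing was counted as 50-base stretches in GENCODE M21. Motifs and pairs were computed in Python 3.11.15 with numpy 2.4.6, scipy 1.17.1 and pandas 2.3.3, and figures with matplotlib 3.10.9.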

Additional observations from a re-analysis of the deposited data

How the results depend on the processing

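Counts of called Rabs kept within 1.5 times of 18 higher and 5 lower with RLE scaling, without a filter, with DESeq2, with limma-voom and with the replicate block, and with the length trend removed. Scaling moved them: upper quartile gave 10 higher and 9 lower, against 13.9% and 31.6% of all genes. With total counts 9 were higher and 11 lower, against 12.8% and 34.9% of all genes. The filter of 5 CPM gave 2 lower, since it left Rab3a, Rab4a and Rab42 untested. Leaving out 1 library gave 11 to 25 higher (fewest without IFN-γ replicate 2, most without untreated replicate 2) and 4 to 8 lower (most without untreated replicate 2). Over those settings, 15.2% to 24% of all genes rose and 11% to 21.1% fell. For regulators and effectors, 26 higher and 16 lower became 16 and 37 with upper quartile scaling, 11 and 37 with total counts, and 18 to 29 and 15 to 29 with 1 library left out. The cause was not tested. Pairs with separate ratios numbered 9 to 11 over the alternatives. Uncalled estimates changed sign with upper quartile and total count scaling: Rab11a to -0.084 and -0.103, Rab14 to -0.103 and -0.127, Rab1b to -0.120 and -0.142 (the latter called lower), and Rab7 to -0.023 and -0.044. Rab1b was -0.0011 with the 5 CPM filter. The labels tie same-numbered libraries by a number only. Correlations of their deviations were 0.31, 0.14 and -0.07, and whether they shared a preparation was not tested. With the number as a replicate block 19 Rabs rose and 5 fell, with Rab29 newly called, and 28 regulators and effectors rose and 19 fell. With fewer than 100 counts a library, as for Rab15, Rab38 and Rab42, counting error limits the precision.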
